A study of Homo sapiens with 4 samples.

Results

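The transcripts described here are long noncoding RNAs in 4 naming classes: antisense RNAs (symbols ending in -AS1 to -AS9), divergent transcripts (-DT), intronic or overlapping transcripts (-IT1 and -OT1) and intergenic RNAs (LINC). They were taken from rows of an expression array that carry a single gene symbol, and a row was kept when its mean log2 value over the 4 arrays was at or above the 40th percentile of all rows, which was 3.96. A row stands for 1 transcript cluster, a group of probes read together. Of 1068 rows with such a symbol, 275 passed this level cut and 793 did not. The 275 rows carry 227 symbols and make up a small part of the 12489 single-symbol rows above the cut, of 27631 rows in all. They hold 103 antisense rows of 99 symbols, 37 divergent rows of 35 symbols, 5 intronic or overlapping rows and 130 intergenic rows of 88 symbols.

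The arrays were made from WM35 cells, a line established from a human melanoma in the radial growth phase. The cells were cultured with C646 at 20 µM or with the solvent DMSO at 0.2%, for 6 h or 24 h, which gives 4 groups: C646 for 6 h, DMSO for 6 h, C646 for 24 h and DMSO for 24 h. Each group is 1 Affymetrix Human Exon 1.0 ST array, hybridised from 100 ng of total RNA. With 1 array per group a difference between 2 arrays has no replicate check, and none of the differences below carries an SD or a p-value unless a model over several arrays is named. All groups share 1 cell line.

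C646 is a competitive inhibitor of the lysine acetyltransferases p300 and CBP, coactivators that acetylate histones at enhancers and promoters. Divergent transcripts start at the promoter of a coding gene and run the opposite way, so that both RNAs are made from 1 nucleosome-depleted region. Antisense RNAs typically run across all or part of a coding gene on the other strand, while intergenic RNAs lie between coding genes. The classes here follow the symbols and not the arrangement. For instance, TPT1-AS1, ARHGAP5-AS1 and ZNF566-AS1 do not overlap the gene they are named for. Each starts within 1000 bases of it on the other strand. Many of these RNAs are short-lived and little abundant, and the exosome and early polyadenylation end many of them near their start.

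Values were similar in range on the 4 arrays: over the 275 rows the median was 4.44 under C646 against 4.39 under DMSO at 6 h, and 4.63 under C646 against 4.40 under DMSO at 24 h. Pearson correlations between arrays over these rows ran from 0.931, for C646 at 24 h with DMSO at 24 h, to 0.982 for the DMSO arrays with each other. The melanocyte identity of the cells was checked with 8 marker genes, of which MITF, SOX10, PMEL, MLANA, TYRP1 and S100B lay above the level cut. None of 4 leukocyte markers did. Of 4 markers each for keratinocytes, fibroblasts and endothelium 1 did (KRT10, COL1A1 and KDR). The endothelial gene KDR was at 8.65 under C646 against 8.12 under DMSO at 6 h, and at 8.35 under C646 against 7.66 under DMSO at 24 h, and its part in the results was not tested. In RNA from a whole culture, fewer cells of a kind and less RNA per cell cannot be told apart.

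Sequences upstream of 5 of these RNAs are shown because they carry the ends of the range found below. ZNRD2-DT had the highest value under C646 relative to DMSO at 24 h and TMPO-AS1 the lowest. ZNF566-AS1, with values close to the level cut, went opposite to the gene it is named for. DPY19L3-DT and SLC2A1-DT were higher at 24 h with a partner whose start lies close by. The start of the coding gene TMPO is added for comparison with TMPO-AS1. Each is the window from 250 bases before to 50 bases after the start of the gene in RefSeq, build GRCh38.p14, written 5′ to 3′ on the strand of the gene. Capitals mark CCAAT boxes (CCAAT or ATTGG), GC boxes (GGGCGG or CCGCCC) and the cyclic AMP response element (TGACGTCA).
ZNRD2-DT, chr11:65570364-65570663, minus strand: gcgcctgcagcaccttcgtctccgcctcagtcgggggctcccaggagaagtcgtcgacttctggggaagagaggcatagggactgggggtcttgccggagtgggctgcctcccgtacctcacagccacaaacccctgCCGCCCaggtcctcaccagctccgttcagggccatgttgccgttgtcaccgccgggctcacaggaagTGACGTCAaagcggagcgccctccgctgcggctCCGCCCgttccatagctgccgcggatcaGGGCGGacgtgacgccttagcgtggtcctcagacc
TMPO-AS1, chr12:98516177-98516476, minus strand: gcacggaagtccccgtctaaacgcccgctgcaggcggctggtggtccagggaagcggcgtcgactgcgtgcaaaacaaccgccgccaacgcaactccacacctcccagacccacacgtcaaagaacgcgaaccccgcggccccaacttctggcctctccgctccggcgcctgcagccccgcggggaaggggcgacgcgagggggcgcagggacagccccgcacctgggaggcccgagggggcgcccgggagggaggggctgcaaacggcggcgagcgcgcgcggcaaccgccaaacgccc
TMPO, chr12:98515323-98515622, plus strand: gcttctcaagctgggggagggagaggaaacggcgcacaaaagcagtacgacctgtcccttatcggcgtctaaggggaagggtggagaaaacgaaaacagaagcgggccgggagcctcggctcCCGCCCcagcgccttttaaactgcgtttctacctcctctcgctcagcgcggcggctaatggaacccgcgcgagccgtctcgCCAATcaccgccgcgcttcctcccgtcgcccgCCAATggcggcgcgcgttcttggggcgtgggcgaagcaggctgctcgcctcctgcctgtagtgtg
ZNF566-AS1, chr19:36489377-36489676, plus strand: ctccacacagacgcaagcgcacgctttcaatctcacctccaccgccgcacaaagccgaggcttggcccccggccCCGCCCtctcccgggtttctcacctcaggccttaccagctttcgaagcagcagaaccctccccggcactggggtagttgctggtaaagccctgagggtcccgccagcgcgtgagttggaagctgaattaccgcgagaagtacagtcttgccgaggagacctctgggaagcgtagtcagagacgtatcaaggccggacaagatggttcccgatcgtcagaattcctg
DPY19L3-DT, chr19:32405490-32405789, minus strand: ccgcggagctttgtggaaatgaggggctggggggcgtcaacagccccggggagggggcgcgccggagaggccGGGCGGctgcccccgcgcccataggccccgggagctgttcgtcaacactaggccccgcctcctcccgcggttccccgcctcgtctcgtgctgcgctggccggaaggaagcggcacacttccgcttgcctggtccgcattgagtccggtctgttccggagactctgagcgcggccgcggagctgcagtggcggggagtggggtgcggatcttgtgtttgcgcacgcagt
SLC2A1-DT, chr1:42958799-42959098, plus strand: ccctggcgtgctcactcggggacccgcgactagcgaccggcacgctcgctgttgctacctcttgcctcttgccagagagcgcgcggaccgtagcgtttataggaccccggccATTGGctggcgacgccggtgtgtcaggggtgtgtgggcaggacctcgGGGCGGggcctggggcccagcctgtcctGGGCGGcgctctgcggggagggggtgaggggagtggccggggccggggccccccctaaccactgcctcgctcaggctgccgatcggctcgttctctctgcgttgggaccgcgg

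The start of ZNRD2-DT lies 64 bases from that of ZNRD2 on the other strand, so the window covers the start region of both genes. It holds 3 GC boxes and 1 cyclic AMP response element, which begins 46 bases before the start. That 8-base element was found in 1.98% of 27305 RefSeq promoters of the same length and in 4 of the 166 member promoters in the table. GC boxes were found on either strand in 44.6% of all these promoters, so a single one is common. The window of TMPO-AS1 holds none of the marked motifs and has a GC content of 73.3%, while that of TMPO holds 2 CCAAT boxes, 47 and 15 bases before the start. A CCAAT box is present in 35.7% of all promoters. A match of letters describes the sequence and does not show that a factor binds there.

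At 24 h the noncoding RNAs were more often higher under C646 than the rest of the transcripts measured. The median log2 difference, C646 minus DMSO, was 0.16 over the 275 rows and 0.023 over all 12489 single-symbol rows, and 195 of the 275 lay above 0 (70.9%), against 53.8% of all. At least 2-fold higher were 17 rows (6.18%), where 1.05% of all rows were. At least 2-fold lower were 3 rows (1.09%), where 2.71% of all rows were. At the 1.5-fold mark 47 rows were higher and 4 lower, against 4.45% and 5.77% of all rows. The direction of the large differences among the noncoding RNAs was therefore mostly up, whereas among all rows more were lower than higher.

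At 6 h the differences were smaller. The median was 0.052 over the 275 rows and -0.0029 over all rows, and the member quartiles were -0.081 and 0.18. LINC00965, NCAM1-AS1 and LINC00847 were the 3 rows at least 2-fold higher, where 0.112% of all rows were, and none was 2-fold lower, where 0.12% of all were. Past 1.5-fold lay 12 rows that were higher and 3 that were lower, against 0.969% and 1.23% of all rows. The differences at 6 h and at 24 h rest on separate arrays, and over the 275 rows they had a Pearson correlation of 0.390 and a Spearman correlation of 0.403, close to the 0.416 and 0.417 over all single-symbol rows.

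Drift in the solvent was small for most of these RNAs. DMSO at 24 h minus DMSO at 6 h had a median of -0.023 over the 275 rows and -0.014 over all rows. No row was 2-fold higher at 24 h, where 0.048% of all rows were, and 1, ZNRD2-DT, was 2-fold lower, where 0.0881% of all were. At 1.5-fold 2 rows were higher and 3 lower, against 0.496% and 0.552% of all rows. The 2 higher ones were OR2W1-AS1 (0.67) and NCAM1-AS1 (0.65), and the 3 lower ones were both rows of ZNRD2-DT (-1.42 and -0.77) and ZNF566-AS1 (-0.64). The DMSO array of 24 h enters both this difference and C646 minus DMSO at 24 h, so a low value on it makes the first lower and the second higher.

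**Figure D1:**
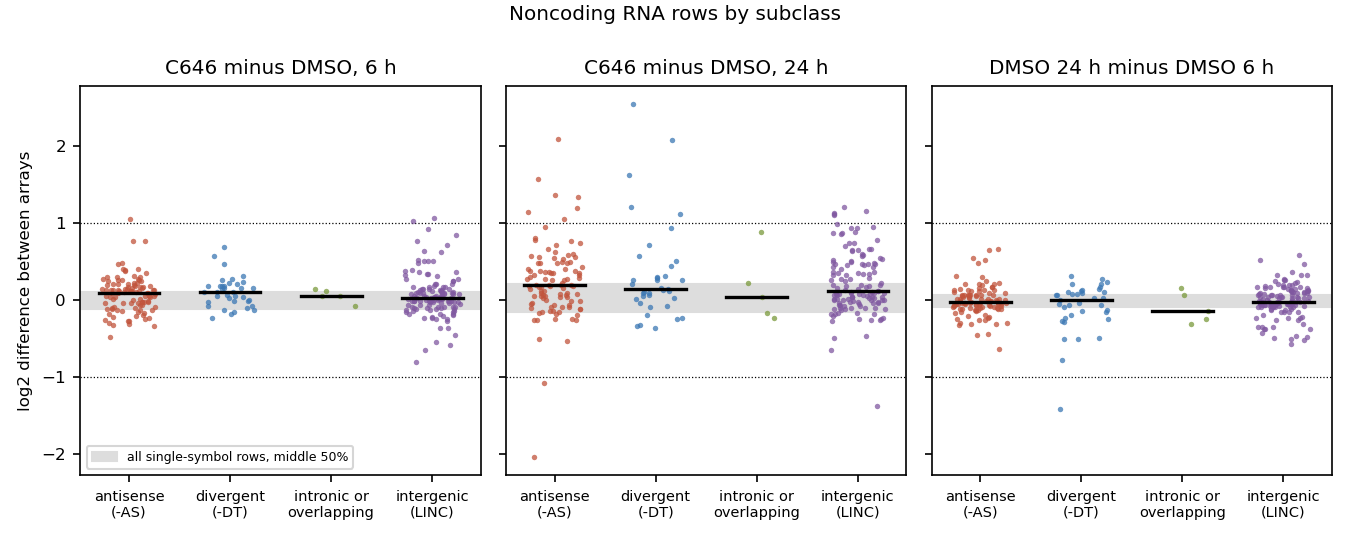
Log2 differences between arrays (y axis) for each noncoding RNA row (points), by naming class, for C646 minus DMSO at 6 h, C646 minus DMSO at 24 h and DMSO at 24 h minus DMSO at 6 h. Black bars are class medians, the grey band holds the middle 50% of all 12489 single-symbol rows, and dotted lines mark 2-fold. The points spread upward in the 24 h panel, where 17 rows lie above the upper dotted line and 3 below the lower one.

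Because the level cut used a mean that includes the 24 h arrays, a row that is high under C646 at 24 h could pass through that array alone. The rows were therefore also chosen on the mean of the 6 h arrays, which play no part in the 24 h difference. This kept 260 rows with a median of 0.16 at 24 h, of which 15 were 2-fold higher and 3 lower, where 1.01% and 2.73% of all rows so chosen were. At 1.5-fold 41 were higher and 4 lower, against 4.38% and 5.81%. The rows 2-fold higher at 24 h that this choice lost were FAM169A-AS1 and AFDN-DT row 4047752, which had passed the first cut only through the C646 array of 24 h. With no level cut at all, the median over the 1068 rows was -5.5e-05 at 24 h, and 18 rows were at least 2-fold higher, so the upward median belongs to rows above the cut.

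To set the noncoding RNAs beside other transcripts by level, the 275 rows were divided into 4 bands. The bands were cut at the quartiles of their mean log2 value, 4.15, 4.46 and 5.10. This mean includes the C646 array of 24 h. All other single-symbol rows above the level cut were put into the same bands. From the lowest band to the highest, the median difference at 24 h was 0.033, 0.13, 0.14 and 0.48 for the noncoding rows. For the other rows it was -0.012, 0.010, 0.019 and 0.029. In the highest band 10 of 69 noncoding rows were at least 2-fold higher (14.5%), and 1.01% of 8116 other rows were. At 1.5-fold 25 of the 69 were higher (36.2%) against 4.84% of the other rows, while 2 of the 69 were lower (2.90%) against 7.04%. The noncoding rows stood above the others in each of the 4 bands, and most widely in the highest. That band is open at the top, with noncoding rows up to 10.9 and other rows up to 13.4, so levels within it are not matched. Among its 25 rows at least 1.5-fold higher, ZNRD2-DT, MRPL20-AS1, LINC00965, LINC00623 and LINC01347 each enter with more than 1 row. Several of the 25, rows of LINC01347, LINC00623 and TPT1-AS1 among them, have a row number away from the place of their symbol. The bands were not recomputed with 1 row a symbol or without such rows.

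**Figure D2:**
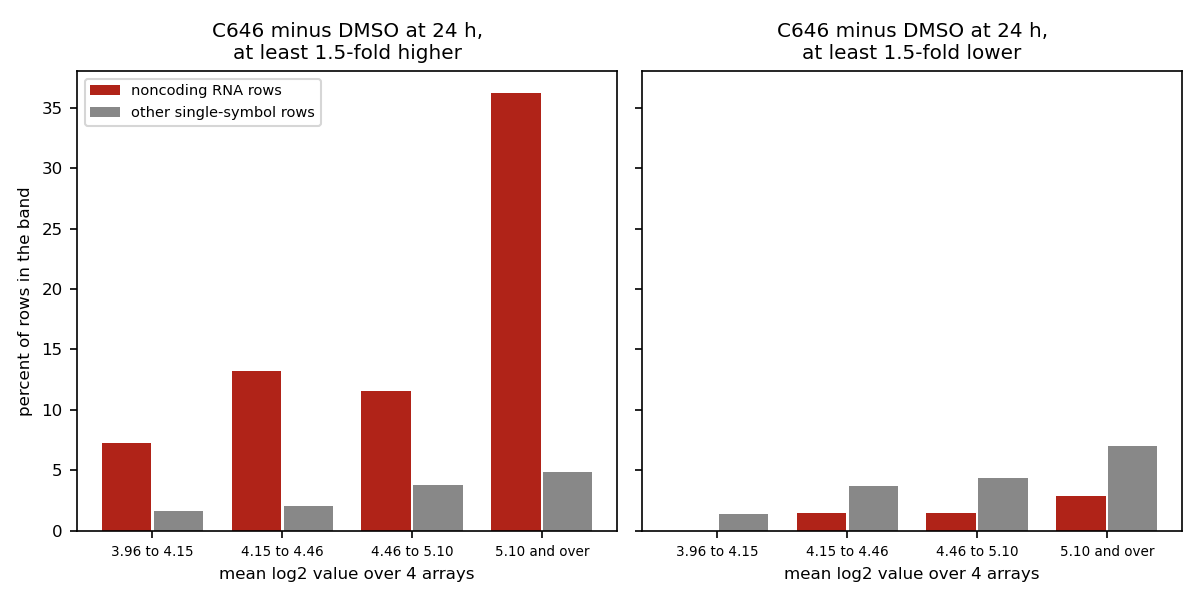
Percent of rows (y axis, from 0) at least 1.5-fold higher (left) or lower (right) under C646 than under DMSO at 24 h, in 4 bands of mean log2 value over the 4 arrays (x axis), for noncoding RNA rows (red) and other single-symbol rows (grey). In the highest band the bars for higher rows reach 36.2% for noncoding RNAs and 4.84% for the other rows. Rows of the same symbol are counted separately.

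Within the same table, 131 rows of other long noncoding RNAs, which have names of another form, had a median of 0.15 at 24 h. Of these 7 were higher by 2-fold or more (5.34%) and 18 by 1.5-fold or more (13.7%), where 1.05% and 4.45% of all rows were. Host genes of small RNAs were taken as noncoding symbols that start with SNHG or end in HG. Their 7 rows had a median of -0.16 and none was 2-fold higher. The 11775 protein-coding rows had a median of 0.018, and 0.824% of them were 2-fold higher and 2.82% 2-fold lower. The median of the other noncoding RNAs was thus close to the 0.16 of the named classes, while that of the few host genes lay below 0. From the lowest level band to the highest, the host genes and other noncoding RNAs together were at least 1.5-fold higher in 0%, 5.71%, 22.9% and 20.9% of rows. For the named classes the shares were 7.25%, 13.2%, 11.6% and 36.2%. None of these gaps was tested.

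The medians of the 4 classes lay close together at 24 h, beside the spread within each. Medians of C646 minus DMSO were 0.19 for antisense, 0.14 for divergent, 0.035 for the 5 intronic or overlapping and 0.11 for intergenic rows. Divergent rows had the highest share at least 2-fold higher, 5 of 37 (13.5%), beside 7 of 103 antisense rows (6.80%) and 5 of 130 intergenic rows (3.85%), where 1.05% of all rows were. With 1 row a symbol the share of 2-fold higher divergent rows was 8.57%, 6.06% for antisense and 5.68% for intergenic ones, so part of the gap between classes came from symbols with 2 rows. At 6 h the medians were 0.095 for antisense, 0.10 for divergent, 0.051 for intronic or overlapping and 0.026 for intergenic rows. In DMSO, 24 h minus 6 h, they were -0.023, -0.0014, -0.15 and -0.024 in the same order.

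Among divergent transcripts ZNRD2-DT stood highest. ZNRD2 encodes a small zinc ribbon protein. Row 3377725 of ZNRD2-DT was at 6.07 under C646 against 5.89 under DMSO at 6 h, and at 7.02 under C646 against 4.47 under DMSO at 24 h, a log2 difference of 2.55 or 5.84-fold. The second row of ZNRD2-DT, 3377723, was at 5.57 under C646 against 5.47 under DMSO at 6 h and at 6.77 under C646 against 4.70 under DMSO at 24 h, a difference of 2.07. Both rows had their highest value under C646 at 24 h and their lowest under DMSO at 24 h, so the 24 h difference of ZNRD2-DT holds both a higher C646 array and a lower DMSO array. Set against the mean of both DMSO arrays, the differences were 1.84 and 1.68.

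AFDN-DT is named for the gene of afadin, an adherens junction protein. Row 4047752 of AFDN-DT was at 4.92 under C646 against 3.30 under DMSO at 24 h and at 4.07 under C646 against 3.79 under DMSO at 6 h. Its second row, 2985281, differed by only 0.25 at 24 h, so the rows of this symbol disagree, and the number of row 4047752 does not place it at the locus. DPY19L3-DT, whose partner encodes a C-mannosyltransferase, was at 5.84 under C646 against 4.64 under DMSO at 24 h and at 5.18 under C646 against 4.61 under DMSO at 6 h. MAN1B1-DT, whose partner encodes a mannosidase of the endoplasmic reticulum, was at 6.30 under C646 against 5.18 under DMSO at 24 h, and at 6.00 under C646 against 5.69 under DMSO at 6 h. In all of these both C646 arrays lay above both DMSO arrays, except that the second AFDN-DT row had its 6 h values the other way round, at 4.39 under C646 against 4.41 under DMSO.

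MOCS2-DT, named for a subunit of molybdopterin synthase, differed by 0.94 at 24 h and 0.47 at 6 h. SLC2A1-DT, named for the glucose transporter GLUT1, was at 4.83 under C646 against 4.14 under DMSO at 6 h and at 4.78 under C646 against 4.07 under DMSO at 24 h. It was the only divergent row at least 1.5-fold higher at both times. The lowest divergent rows at 24 h were CTDP1-DT (-0.36), COL25A1-DT (-0.34) and PPP3CA-DT (-0.33), all within 1.5-fold.

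The highest antisense RNA at 24 h was MRPL20-AS1, named for a protein of the large mitochondrial ribosomal subunit. Row 4041862 of MRPL20-AS1 was at 6.96 under C646 against 4.87 under DMSO at 24 h and at 5.11 under C646 against 4.98 under DMSO at 6 h. Row 2315870, whose number fits the locus, was at 6.48 under C646 against 5.13 under DMSO at 24 h, and at 5.60 under C646 against 4.83 under DMSO at 6 h. A further row, 4041856, differed by 0.35 at 24 h. All 3 rows of MRPL20-AS1 were higher under C646 at both times, though by amounts from 0.13 to 0.77 at 6 h and from 0.35 to 2.09 at 24 h.

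FAM169A-AS1 was at 5.57 under C646 against 4.00 under DMSO at 24 h and was at 3.83 under C646 against 3.80 under DMSO at 6 h. TPT1-AS1 is named for the translationally controlled tumour protein, and was at 9.30 under C646 against 7.96 under DMSO at 24 h and at 9.04 under C646 against 8.28 under DMSO at 6 h. ARHGAP5-AS1 differed by 1.19 at 24 h and 0.19 at 6 h. NHSL1-AS1 differed by 1.13 at 24 h and 0.37 at 6 h. Of these 4 RNAs, all had their highest value under C646 at 24 h.

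PLCE1-AS1, named for a phospholipase C, went opposite ways at the 2 times: it was at 4.51 under C646 against 4.79 under DMSO at 6 h and at 6.04 under C646 against 4.99 under DMSO at 24 h. NCAM1-AS1, named for the neural cell adhesion molecule, was at 4.56 under C646 against 3.51 under DMSO at 6 h but at 3.90 under C646 against 4.16 under DMSO at 24 h. Its 2 DMSO values lay 0.65 apart, and its 6 h difference was 0.73 when taken from their mean.

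TMPO-AS1 was the lowest of all the noncoding rows at 24 h. TMPO encodes thymopoietin, or LAP2, a protein of the nuclear envelope and lamina. TMPO-AS1 was at 3.98 under C646 against 6.02 under DMSO at 24 h, a difference of -2.04 or 4.13-fold lower, while at 6 h it was at 6.30 under C646 against 6.34 under DMSO. Only the C646 array of 24 h stood apart, and DMSO at 24 h minus DMSO at 6 h was -0.32. OR2W1-AS1, named for an olfactory receptor, was at 3.91 under C646 against 4.99 under DMSO at 24 h, and at 4.43 under C646 against 4.32 under DMSO at 6 h. Here the DMSO array of 24 h was the highest of the 4, and the difference from the mean of the DMSO values was -0.75. TENM3-AS1 (-0.53) and CDKN2A-AS1 (-0.51) followed, both within 1.5-fold.

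**Figure D3:**
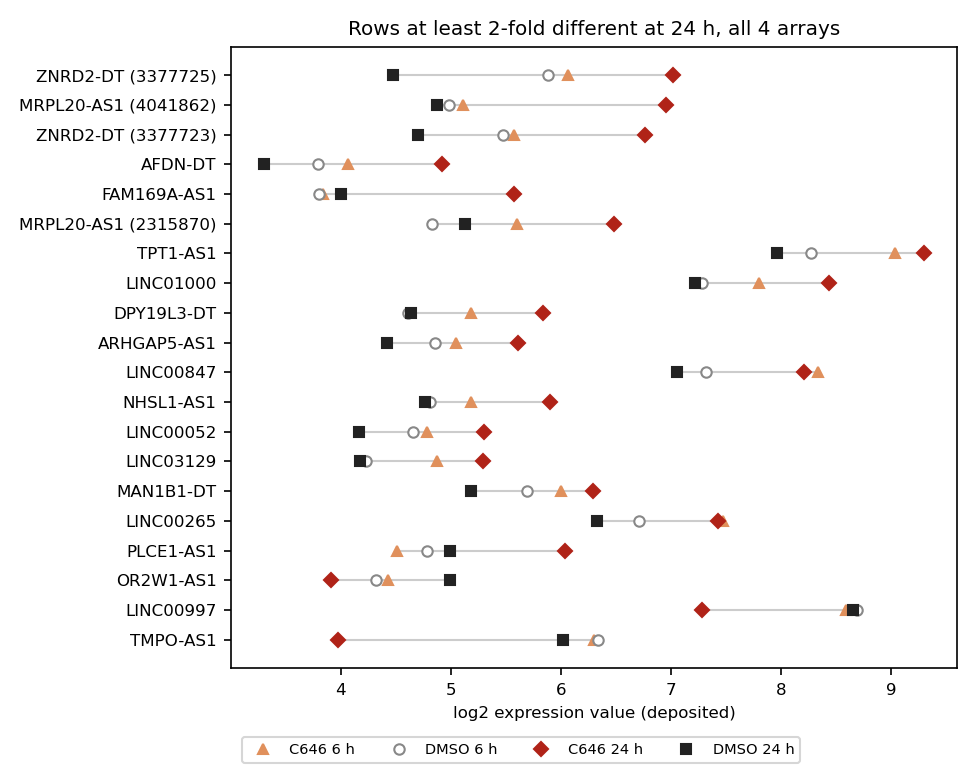
Deposited log2 values (x axis) on the 4 arrays for the 20 noncoding RNA rows at least 2-fold different between C646 and DMSO at 24 h, sorted by that difference (y axis). Row numbers are given where a symbol has 2 such rows. Red diamonds (C646 at 24 h) lie right of black squares (DMSO at 24 h) in the upper 17 rows and left of them in OR2W1-AS1, LINC00997 and TMPO-AS1, and orange triangles (C646 at 6 h) mostly lie near the open circles (DMSO at 6 h).

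The 5 intronic or overlapping transcripts had small differences in all but 1 case. BIN3-IT1 was at 5.51 under C646 against 4.63 under DMSO at 24 h, and at 4.99 under C646 against 4.88 under DMSO at 6 h. The others lay between -0.24 (SLIRP-OT1) and 0.22 (GABPB1-IT1) at 24 h, with SND1-IT1 at -0.17 and SPANXA2-OT1 at 0.035. At 6 h the 5 rows ran from -0.083 to 0.14.

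Among intergenic RNAs the highest row at 24 h was 4045065 of LINC01000, at 8.44 under C646 against 7.22 under DMSO, and at 7.80 under C646 against 7.28 under DMSO at 6 h. The other 5 rows of LINC01000 ranged down to -0.24 at 24 h, so this value belongs to 1 row and not to the symbol. LINC00847 was the only RNA at least 2-fold higher at both times. Its row 4047591 was at 8.34 under C646 against 7.32 under DMSO at 6 h and at 8.21 under C646 against 7.06 under DMSO at 24 h. A second row of LINC00847, 2844840, was at 6.70 under C646 against 5.79 under DMSO at 6 h and at 6.30 under C646 against 5.72 under DMSO at 24 h, so that both rows were higher at both times.

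LINC00052 was at 5.30 under C646 against 4.17 under DMSO at 24 h, and LINC03129 at 5.29 under C646 against 4.17 under DMSO. At 6 h LINC00052 differed by 0.13 and LINC03129 by 0.64. LINC00265 (row 3051794) was at 7.43 under C646 against 6.33 under DMSO at 24 h and at 7.47 under C646 against 6.71 under DMSO at 6 h. All 4 rows of LINC00265 were higher under C646 at both times, by 0.34 to 1.10 at 24 h. LINC01521 and row 3051630 of LINC00937 were also at least 1.5-fold higher at both times, by 0.63 and 0.71 at 6 h and by 0.88 and 0.66 at 24 h. The 3 rows of LINC00937 disagree, with a range of -0.23 to 0.71 at 6 h and of -0.18 to 0.66 at 24 h, and all are numbered on another chromosome.

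At least 1.5-fold higher at both times were 10 rows of 9 symbols, where 0.424% of all rows were: MRPL20-AS1, TPT1-AS1, SLC2A1-DT, LINC00265, LINC00847, LINC00937 (1 row of 3), LINC00965 (2 rows), LINC01521 and LINC03129. None was 1.5-fold lower at both times, where 0.528% of all rows were. Both C646 arrays lay above both DMSO arrays in 100 of the 275 rows (36.4%), where 25.2% of all rows did. Both lay below in 28 (10.2%), where 21.9% of all did.

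LINC00997 was the lowest intergenic RNA at 24 h. Its row 2996134 was at 7.28 under C646 against 8.66 under DMSO at 24 h and at 8.60 under C646 against 8.69 under DMSO at 6 h, while its row 2996141 differed by only -0.11 at 24 h. LINC01060 (-0.65), LINC01128 (row 3121140, -0.49) and LINC02693 (-0.47) came next. At 6 h the lowest row was LINC00294, at 7.01 under C646 against 7.82 under DMSO, and at 24 h it was at 7.48 under C646 against 7.73 under DMSO. LINC01881 (row 4032066, -0.66), LINC01128 (row 3121122, -0.59) and LINC00205 (-0.55) followed at 6 h, and the first and last of these were higher at 24 h, by 0.48 and 0.42.

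Several LINC symbols are carried by many rows, which are not separate genes and can share near-identical sequence, so their rows may read the same RNA. Of the 275 rows, 70 belong to 22 symbols with more than 1 row, and 46 to 10 symbols with 3 or more. All 11 rows of LINC00965 were higher under C646 at 24 h, by 0.032 to 0.95, with a median of 0.37, and 9 of the 11 were numbered in their own place. The 4 rows of LINC01347 were higher by 0.47 to 0.87, the 4 of LINC00623 by 0.45 to 0.86 and the 5 of LINC01881 by 0.20 to 0.60 at 24 h. At 6 h the medians of these families were 0.25 for LINC00965, 0.0010 for LINC01347, 0.015 for LINC00623 and -0.070 for LINC01881. The 3 rows of LINC01128 were lower at both times, by 0.25 to 0.49 at 24 h.

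A gene partner named in the symbol was present for 145 of the rows, and for 96 of them the partner had a row of its own above the level cut. At 24 h the median difference over these pairs was 0.25 for the noncoding RNA and 0.081 for the partner gene, and the noncoding RNA lay above its partner in 72 pairs. The signs matched in 59 pairs (61.5%), and the Pearson and Spearman correlations across pairs were 0.300 and 0.258. Both medians lay above 0, so signs can match with no link within pairs. By class the signs matched in 55.6% of 63 antisense pairs and 74.2% of 31 divergent pairs. Pairs share their arrays, and some partners enter more than once. At least 1.5-fold higher were 20 of the 96 noncoding RNAs and 3 of the 96 partners, where 4.45% of all rows were, so the count of partners lies near the background. Of these FRMD6-AS1 (0.60) with FRMD6 (0.64) was the only pair in which both were.

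ZNRD2 was at 7.29 under C646 against 7.11 under DMSO at 24 h, a difference of 0.19 beside 2.55 for ZNRD2-DT. MRPL20 differed by 0.18, AFDN by 0.12 and DPY19L3 by 0.041 at 24 h. FAM169A differed by -0.064, TPT1 by -0.046, ARHGAP5 by 0.087 and MAN1B1 by 0.29. None of these partners was 1.5-fold different, where 4.45% of all rows were higher and 5.77% lower by that much. At such shares so few partners say little. Their noncoding neighbours were picked for a row at least 2-fold higher, so the gap is partly set by that choice. The partner rows of TPT1 and ARHGAP5 are numbered on another chromosome and may not read those genes. SLC2A1 was nearer to SLC2A1-DT, with 0.50 at 24 h and 0.13 at 6 h beside 0.72 and 0.69 for the divergent RNA.

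ZNF566, which encodes a zinc finger protein, was at 4.80 under C646 against 5.96 under DMSO at 24 h, a difference of -1.16, while ZNF566-AS1 was at 4.36 under C646 against 3.42 under DMSO, a difference of 0.94. Their starts lie 66 bases apart on opposite strands. DMSO at 24 h was the lowest of the 4 arrays for ZNF566-AS1, and at 6 h that RNA was at 4.08 under C646 against 4.05 under DMSO. The mean of ZNF566-AS1 over the 4 arrays, 3.98, lay just above the level cut of 3.96. Without the C646 array of 24 h that mean would fall below the cut. The opposite direction of this pair therefore rests, for ZNF566-AS1, on values close to the cut. PAXIP1, whose product works with histone methyltransferases and in the DNA damage response, differed by -0.59, while PAXIP1-AS2 differed by 0.66 and PAXIP1-DT by 0.30. These pairs had opposite signs at 24 h. Taken from both DMSO arrays, the differences were 0.63 for ZNF566-AS1, 0.64 for PAXIP1-AS2 and 0.050 for PAXIP1-DT, whose drift in DMSO was -0.51.

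TMPO and TMPO-AS1 were lower together. TMPO was at 5.10 under C646 against 6.66 under DMSO at 24 h, a difference of -1.55, and at 6.31 under C646 against 6.63 under DMSO at 6 h. Their starts lie 653 bases apart on opposite strands, and the genes overlap. It was the only pair in which both were at least 1.5-fold lower. OIP5, a centromere protein needed to load CENP-A, was at 4.63 under C646 against 6.27 under DMSO at 24 h, while OIP5-AS1 was at 4.91 under C646 against 5.07 under DMSO, and its start lies 48601 bases from that of OIP5. TMPO and OIP5 are on a list of cell cycle genes, whose 74 measured members had a median difference of -1.73 at 24 h. KIF23-AS1, the remaining noncoding RNA with a partner on that list, differed by 0.19.

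**Figure D4:**
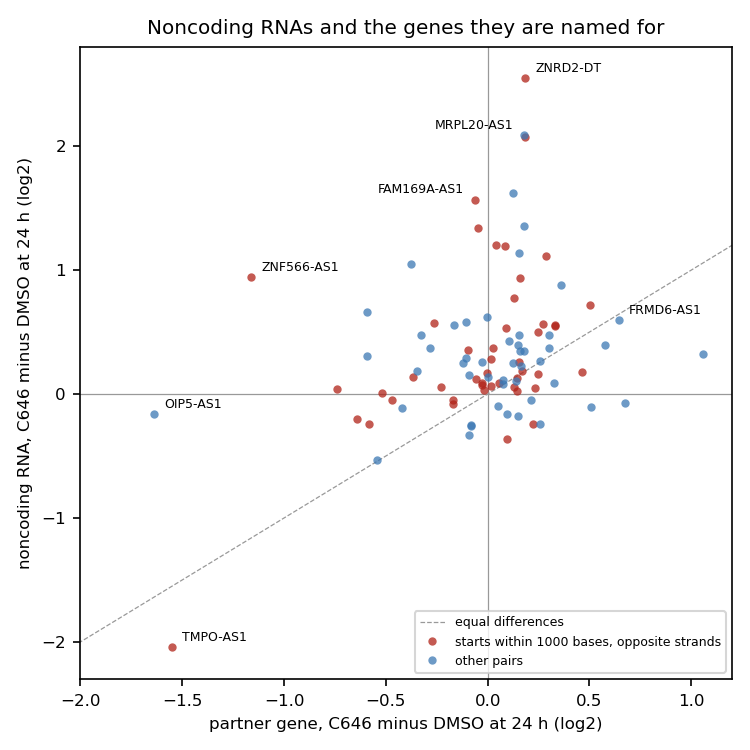
C646 minus DMSO at 24 h (log2) for the noncoding RNA (y axis) and for the gene in its name (x axis), 1 point for each of 96 pairs, red where the starts lie within 1000 bases on opposite strands and blue for other pairs. The dashed line marks equal differences. Most points with a noncoding difference above 1 sit near 0 on the x axis. ZNF566-AS1, whose values are close to the level cut, lies upper left and TMPO-AS1 lower left.

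Distance between starts was known for 107 of the pairs, of which 105 were on opposite strands, and in 61 of these the starts lay within 1000 bases. Both RNAs of such a pair were measured in 47 cases. Over these the correlation of the 24 h differences was 0.440 (Pearson) and 0.394 (Spearman), and over the 49 other pairs 0.142 and 0.136. At least 1.5-fold higher were 11 of the 47 noncoding RNAs and none of their partners, where 4.45% of all rows were, a share at which 0 of 47 says little about the partners. The TMPO pair is 1 of the 47 and lies far from the other points.

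Of the 227 symbols 166 had a promoter in the RefSeq table, and these were divided by whether a protein-coding start lies within 1000 bases on the other strand, whatever the symbol. The 71 with such a neighbour had a median of 0.26 at 24 h, and 58 of them were above 0 (81.7%) and 7 at least 2-fold higher (9.86%). The 95 without one had a median of 0.14, with 63 above 0 (66.3%) and 4 at least 2-fold higher (4.21%). Among the 7 are FAM169A-AS1, which passed the level cut only through the C646 array of 24 h, and TPT1-AS1, numbered on another chromosome. Among the 4 are LINC00265 and LINC00847, whose rows are not numbered in the place of their symbol. The split was not recomputed without such rows. Of all single-symbol rows above the level cut 53.8% were above 0 and 1.05% at least 2-fold higher. Among antisense RNAs alone the medians were 0.35 for 37 with a close coding start and 0.19 for 39 without one. At 6 h they were 0.10 over the 71 and 0.074 over the 95. The 29 divergent RNAs with a close coding start had a median of 0.14, no higher than that of the 95 without one. GC boxes were found in 80.3% of the promoters with a close coding start and in 41.1% of those without, beside 58.5% of protein-coding promoters. The median GC content was 68.3% and 59.7% in the same order.

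The 29 promoters of RNAs at least 1.5-fold higher at 24 h held a GC box in 72.4% and a CCAAT box in 44.8% of cases, and the other 137 member promoters in 54.7% and 35.0%. The cyclic AMP response element was found in 2 of the 29 and 2 of the 137. These shares rest on few promoters and on windows in which close coding starts are themselves richer in GC.

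Noncoding RNAs with a known role had small to moderate differences, apart from TMPO-AS1. LINC00518, which is measured in a clinical melanoma assay, was at 6.47 under C646 against 5.98 under DMSO at 24 h in row 2941546, and differed by -0.11 in row 2941392. LEF1-AS1 differed by 0.39 at 24 h, beside 0.58 for LEF1, a transcription factor of the Wnt pathway. ZEB1-AS1 differed by -0.050, beside -0.47 for ZEB1, a repressor active in epithelial-mesenchymal transition. GATA3-AS1 differed by -0.11 and OIP5-AS1, known as Cyrano, by -0.16. ASH1L-AS1, which is not on this list and is named for a histone methyltransferase, differed by 0.044.

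A linear model in limma with time and treatment as terms, over all 4 arrays and all 16579 rows above the level cut, has 1 residual degree of freedom and takes its error from how far the effects at 6 h and 24 h disagree. It called none of the 275 rows at an adjusted p under 0.05, and 0% of all rows, with a lowest adjusted p of 0.448. At an unadjusted p under 0.05 there were 48 noncoding rows with a higher and 9 with a lower value under C646 (17.5% and 3.27%), against 6.13% and 4.9% of all rows. No difference between the treatments was therefore established by this model for any single RNA.

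When the C646 array of 6 h was left out, the model compared C646 at 24 h with the pair of DMSO arrays, with the lone C646 array assumed to vary like the DMSO arrays and with the drift of DMSO in the error. Under this setting 60 of the 275 rows rose (21.8%) and 7 fell (2.55%), by an adjusted p under 0.05, against 6.68% and 6.9% of all rows. The rows that rose were 22 antisense, 7 divergent, 1 intronic (BIN3-IT1) and 30 intergenic ones, and those that fell were 3 antisense and 4 intergenic ones. MRPL20-AS1 row 4041862 had the highest estimate among the rows that rose, 2.03 ± 0.096 (SE, limma adjusted p = 0.0034). DPY19L3-DT rose by 1.22 ± 0.084 (SE, limma adjusted p = 0.0050). ZNRD2-DT passed in row 3377723, at 1.68 ± 0.33 (SE, limma adjusted p = 0.043), and not in row 3377725, at 1.84 ± 0.59 (SE, limma adjusted p = 0.12), whose DMSO values lay farther apart. TMPO-AS1 was the lowest, at -2.20 ± 0.15 (SE, limma adjusted p = 0.0051), followed by LINC00997 row 2996134, at -1.39 ± 0.096 (SE, limma adjusted p = 0.0050). The 17 rows at least 2-fold higher than DMSO at 24 h were picked on the C646 and DMSO arrays of 24 h. Both arrays also enter this setting, so calls of those rows here are no separate support. FAM169A-AS1 and AFDN-DT row 4047752 had passed the level cut only through the array on which they were high, so their calls carry no weight. The same holds for other rows that rose, BCDIN3D-AS1, LINC02315, SRP14-DT and GABPB1-AS1 among them. The shares of rows that rose were not recomputed on rows chosen without that array, for the noncoding RNAs or for all rows. How much of the gap between these shares comes from the level cut was therefore not tested. Leaving out any of the other 3 arrays left no row past the threshold.

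The row numbers of this array run by chromosome, strand and position, so a row numbered among genes of another place may have been given a symbol by sequence likeness. Of the 275 rows 209 were numbered in the place of their symbol (76%), against 84.3% of all single-symbol rows. Place and strand both fitted for 146 (53.1%), against 67.6% of all. For 63 of the 209 the strand was unclear, BIN3-IT1, LINC00052 and LINC03129 among them. Outside the 209, 38 rows were numbered on the same chromosome over 2 Mb away, 15 on another chromosome, 2 on the other strand and 11 in no clear place. TPT1-AS1 and LINC01000 row 4045065 are among the 15, MRPL20-AS1 row 4041862 among the 38, and AFDN-DT row 4047752 and LINC00847 row 4047591 among the 11. The 209 rows in their own place had a median of 0.16 at 24 h with 11 rows at least 2-fold higher (5.26%) and 3 lower (1.44%). The other 66 had a median of 0.17 with 6 higher (9.09%) and 0 lower. Of all single-symbol rows above the level cut 1.05% were higher and 2.71% lower by that much.

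Just inside the level cut lay LINC01000 row 3003032 (mean 3.962), BCDIN3D-AS1 (3.965) and IGFL2-AS1 (3.965), and just outside it LINC01560 (3.959), LINC02213 (3.956) and DNAJC9-AS1 (3.951). BCDIN3D-AS1 was at 4.47 under C646 against 3.70 under DMSO at 24 h and the other 5 differed by at most 0.24 in size. Over the 793 rows below the cut the median at 24 h was -0.022, and 1 row was at least 2-fold higher (0.126%) and none lower. Over all 7940 single-symbol rows below the cut the median was -0.027, and 0.0756% were at least 2-fold higher and 0.0126% lower.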

How the data were processed

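Total RNA of WM35 cells was labelled and hybridised to 1 exon array per group, per the labels' protocols. The authors deposited log2 expression values per transcript cluster, which ran from 2.48 to 13.6 over all rows and arrays. Their background correction, normalisation and summarisation are not given in the sources used here, and hg19 is the build named in the submitters' processing notes. Nothing says that the arrays came from separate cultures, so p-values measure the spread between these arrays, and the number of arrays limits the precision.

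Symbols came from the platform annotation and were updated through gene identifiers with the RefSeq gene table. All 275 member rows matched, and 20362 of 20429 single-symbol rows did. Rows with several symbols (4232) or none (2970) were left out. Differences were taken on the log2 scale as deposited. Models were fitted with limma 3.58.1 in R 4.3.3 (lmFit, eBayes with trend, Benjamini-Hochberg over all 16579 rows), after a test on simulated data. Pairs were formed from the symbol, and the place of a row was judged from the 10 neighbours on each side in row number. Promoter windows and motifs come from RefSeq, GRCh38.p14. No coordinates were converted.

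The transcripts, classes and gene lists were chosen with earlier results of these data known. Named RNAs were the highest and lowest rows of each difference and class, those past 2-fold, those past 1.5-fold at both times, the partners of these rows, RNAs of known role, rows nearest to the level cut and rows with a partner on a gene list. RNAs named outside this rule were chosen after their values were seen, namely the families of symbols with several rows, further rows of named symbols, FRMD6-AS1, MOCS2-DT and the highest estimates of the model without the C646 array of 6 h. The promoters shown, the cyclic AMP response element, the 1000-base distance and the limits for placement were also chosen after the data were seen.

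Alternatives were another level cut, 1.5-fold, quantile normalisation, median centring, the mean of both DMSO arrays as reference, rows in their own place, 1 row a symbol and leaving out each array. The level cut on the 6 h arrays and the omission of symbols with 3 or more rows were added after the data were seen.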

Additional observations from a re-analysis of the deposited data

Results flagged for a closer look

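NCAM1-AS1, OR2W1-AS1 and PLCE1-AS1 went opposite ways under C646 at 6 h and 24 h, with at least 1 of the differences past 2-fold. NCAM1-AS1 differed by 1.05 at 6 h and -0.25 at 24 h. OR2W1-AS1 differed by 0.11 at 6 h and -1.08 at 24 h, and PLCE1-AS1 by -0.28 at 6 h and 1.05 at 24 h. The change between times was not tested, since each value rests on 1 array per group. In the first 2 of these the DMSO arrays lay 0.65 and 0.67 apart, with 24 h above 6 h in both.

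Rows that carry several symbols were left out of the comparisons above. Among 205 of them above the level cut with at least 1 antisense, divergent or intergenic symbol, 11 were at least 2-fold higher under C646 at 24 h and 1 was lower, where 1.05% and 2.71% of all single-symbol rows were. Their median was 0.24, and 53 were at least 1.5-fold higher, where 4.45% of all were. Which of the symbols on such a row gave the signal cannot be told apart.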

How the results depend on the processing

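The medians and 2-fold counts over all noncoding rows were recomputed under every alternative that applies, the class medians and the share of pairs of 1 sign only with 1 row a symbol and with rows in their own place, and the level bands and the split by close coding starts under none. Of the recomputed values 87, with limma counts among them, kept their direction and stayed near the first value, 12 moved further and 2 turned. Without a level cut the median turned to -5.5e-05 at 24 h and to 0.020 in DMSO, 24 h minus 6 h, and was 0.0041 at 6 h, since the 793 further rows lie near 0. With the cut at the 60th percentile, which leaves 77 rows, the medians were 0.10 at 6 h, 0.47 at 24 h and -0.054 in DMSO. At 1.5-fold instead of 2-fold the counts were 12 higher and 3 lower at 6 h, 47 higher at 24 h, and 2 higher and 3 lower in DMSO. Against the mean of both DMSO arrays 1 row was 2-fold higher at 6 h. Rows in their own place gave 11 rows 2-fold higher at 24 h, of fewer rows. The limma count with 1 array left out ran from 0 to 67, and 67 came without the C646 array of 6 h. Of single rows past 2-fold, 7 came within it against the mean of both DMSO arrays: LINC00965 (0.94) and NCAM1-AS1 (0.73) at 6 h, and OR2W1-AS1 (-0.75), LINC00265 (0.91), MAN1B1-DT (0.86), ARHGAP5-AS1 (0.97) and LINC00052 (0.89) at 24 h. Median centring subtracted 0.0016 at 6 h, -0.016 at 24 h and -0.021 in DMSO. Without symbols of 3 or more rows, the median at 24 h was 0.12 and 13 rows were 2-fold higher. No paired analysis was possible because each group holds 1 array, and the time term is the only block the design allows. Probe signal near background limits what the rows close to the level cut can show.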
